A study of Mus musculus with 8 samples.

Results

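The genes of the matrix metalloproteases (Mmp), the ADAMTS proteases and their ADAMTS-like relatives (Adamts, Adamtsl) and the tissue inhibitors of metalloproteases (Timp) were examined in the mouse uterus at gestation day 3.5 (GD3.5). Members were chosen by name alone, as each listed gene whose symbol is Mmp, Adamts, Adamtsl or Timp followed by a number. This gave 51 of 24963 genes, with 23 Mmp, 19 Adamts, 5 Adamtsl and 4 Timp genes. RNA-seq was run on whole uterine tissue of 8 mice, 1 library per mouse, with 4 control mice (Nr2f2 f/f) and 4 mutants (Nr2f2 d/d). Nr2f2 f/f mice carry floxed Nr2f2 alleles without Cre, and Nr2f2 d/d mice (Pgr Cre/+; Nr2f2 flox/flox) carry the same floxed alleles with Cre at the Pgr locus, so that Nr2f2 is removed from Pgr-expressing cells. The Cre occupies 1 Pgr allele in Nr2f2 d/d only, and no group with Cre and intact Nr2f2 was included, so the Cre allele and the loss of Nr2f2 cannot be told apart. The labels give C57B6/J females of 8 weeks, which were mated with vasectomized males and so held no embryos.

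Matrix metalloproteases are zinc proteases that cut collagens, other matrix proteins and cell surface proteins. They are made as inactive precursors, and the TIMPs block their active sites. ADAMTS proteases are secreted relatives that process procollagens, cleave proteoglycans or act on microfibrils, and ADAMTS-like proteins share their ancillary domains but have no protease domain. In the uterus, these families are known for matrix turnover around implantation, decidualization and the loss of tissue after pregnancy.

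The targeted gene Nr2f2 was at 25.3, 21.8, 25.7 and 23.5 FPKM in Nr2f2 f/f replicates 1 to 4, and at 9.66, 9.42, 6.90 and 9.74 FPKM in Nr2f2 d/d replicates 1 to 4. This was a change of -1.39 ± 0.118 on the log2 scale (SE, limma, adjusted p = 0.00549). Library values are given in this replicate order throughout. Library totals recovered from the FPKM (fragments scaled to gene length and library total) were about 61500000 to 92700000 fragments. Nr2f2 f/f replicate 2 stood apart from the other libraries, with a sum of 7 gland markers of 3304 FPKM against 162 to 618 FPKM in the other controls and 141 to 932 FPKM in Nr2f2 d/d. That sum was carried by Spink1, Prss28 and Prss29 (1332, 510 and 1444 FPKM). Foxa2, Lif and Cxcl15 were at their lowest of all libraries there (3.24, 0.647 and 1.18 FPKM). Between genotypes, Spink1 was lower in Nr2f2 d/d at an adjusted p under 0.05, and Ltf was higher at the study's threshold. The sum of 8 endothelial markers was 277 to 370 FPKM in Nr2f2 f/f and 173 to 221 FPKM in Nr2f2 d/d, and 7 of the 8 were lower at the study's threshold, 5 of them at an adjusted p under 0.05. Other marker lists moved in part. The 9 stromal markers summed to 1535 to 1737 FPKM and 2107 to 3847 FPKM, with 5 higher at the study's threshold (Dcn, Lum, Col1a1, Col3a1 and Col6a4), 2 lower (Vim and Thy1), and Pdgfra and Pdgfrb past no threshold. The 9 epithelial markers summed to 824 to 889.7 FPKM and 1062 to 1201 FPKM, but the sums overlapped without the keratin genes Krt7, Krt8 and Krt19, at 572 to 679 FPKM and 514 to 819 FPKM. The 6 mesothelial markers summed to 131 to 168 FPKM and 213 to 306 FPKM, and without Krt19, which is also in the epithelial list, to 69.6 to 95.8 FPKM and 87.2 to 109 FPKM. Msln, Upk3b and Krt19 were higher at the study's threshold, Msln also at an adjusted p under 0.05. The 10 T and NK cell markers summed to 66.0 to 86.5 FPKM and 102 to 395 FPKM, and without the granzyme genes Gzma and Gzmb to 34.0 to 52.2 FPKM and 28.5 to 114 FPKM. Of the 8 tested, 5 were higher at the study's threshold (Gzma, Gzmb, Prf1, Cd3d and Cd3e), Gzmb and Cd3d also at an adjusted p under 0.05, and 0 were lower. The smooth muscle sums overlapped. In this bulk tissue, fewer cells of a type and less RNA per cell cannot be told apart, and the part of these shifts in the results on proteases was not tested.

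Of the 51 members, 35 averaged 0.5 FPKM or more across the libraries and were tested, 12 Mmp, 16 Adamts, 4 Adamtsl and 3 Timp genes. The other 16 were below it and were not tested, and Mmp1a and Mmp1b were at 0 in all 8 libraries. On the FPKM scale, which is per length, Mmp14 and Mmp2 had the highest means of all members, followed by Timp2 and Mmp23. The highest Adamts genes were Adamts1 and Adamts10, and the highest Adamtsl genes were Adamtsl4 and Adamtsl1. The 23 Mmp genes together summed to 266 to 364 FPKM in Nr2f2 f/f and 285 to 353 FPKM in Nr2f2 d/d. The 19 Adamts genes summed to 104 to 122 FPKM and 90.6 to 104 FPKM, and the 4 Timp genes to 127 to 146 FPKM and 111 to 130.0 FPKM. In the plot of levels, Mmp7 and Adamts16 were the members that spread most widely within genotypes.

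**Figure D1:**
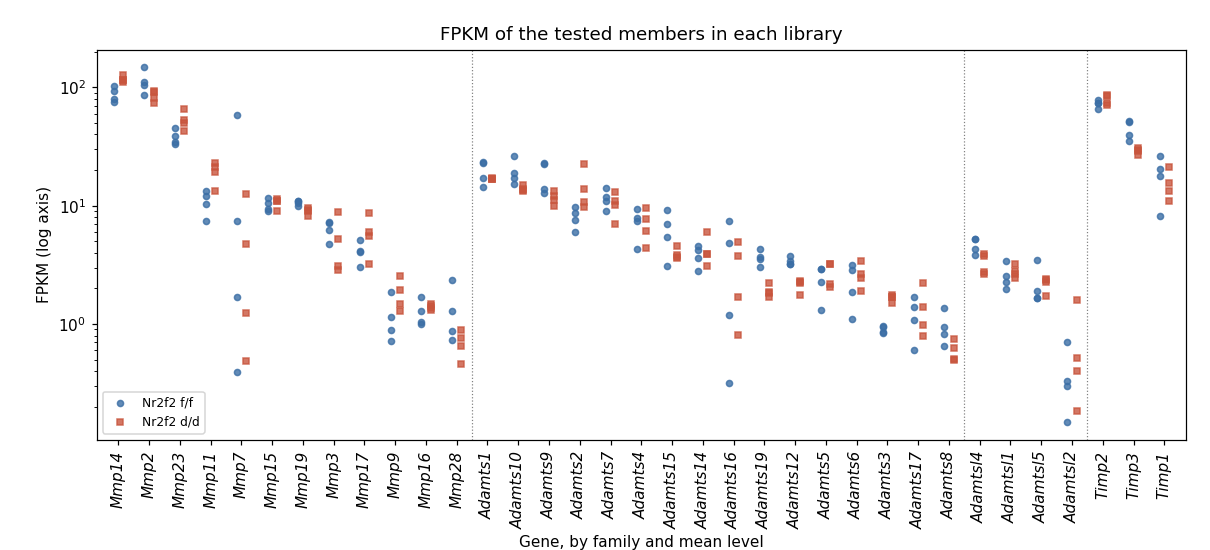
FPKM (log axis) of the 35 tested members in each of the 8 libraries, ordered by family and mean level, with circles for Nr2f2 f/f and squares for Nr2f2 d/d. Mmp14 spans 74.9 to 127 FPKM and Mmp2 73.5 to 148 FPKM, while Mmp7 spans 0.394 to 58.6 FPKM and Adamts16 spans 0.315 to 7.37 FPKM.

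Limma's test over 14323 genes gave an adjusted p under 0.05 for 3 members. These were 8.57% of the 35 members tested, where 2.62% of all genes passed. Adamts3 was higher in Nr2f2 d/d, where 1.09% of all genes were called in that direction, and Adamts19 and Adamts12 were lower, where 1.53% were. Of the 12 Mmp genes 0 passed, with 5 at an unadjusted p under 0.05, and of the 3 Timp genes 0 passed, with 1 at an unadjusted p under 0.05, where 21.2% of all genes had such a p. At the study's threshold, which asks for a fold change of at least 1.4 and an unadjusted p below 0.05, 7 members were called (20% of those tested, against 8.8% of all genes). Adamts3, Mmp11 and Adamts2 were the 3 higher ones (4.7% of all genes), and Adamts19, Adamts12, Timp3 and Adamts9 the 4 lower ones (4.1% of all genes). FPKM of Nr2f2 d/d and Nr2f2 f/f did not overlap for 7 tested members, Adamts3, Mmp14, Adamts19, Adamts12, Timp3, Adamts10 and Mmp19, that is for 20% of them against 15.4% of all genes tested. The median log2 fold change was 0.048 over the tested members and -0.019 over all genes tested. By family the median was 0.095 for Mmp, -0.11 for Adamts, 0.087 for Adamtsl and -0.17 for Timp genes, and members of each family lay on both sides of 0. These medians depended on single libraries. Without Nr2f2 f/f replicate 2 they were 0.21, -0.28, 0.23 and -0.50, and the sign turned for Adamtsl without Nr2f2 f/f replicate 3 (-0.037) and for Timp without Nr2f2 f/f replicate 1 (0.041). Without Nr2f2 f/f replicate 3, Adamtsl2 fell below the level tested, so that Adamtsl median is over fewer members. The plot of fold changes shows this spread, with 7 Mmp genes above 0 and 5 below, and 7 Adamts genes above and 9 below.

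**Figure D2:**
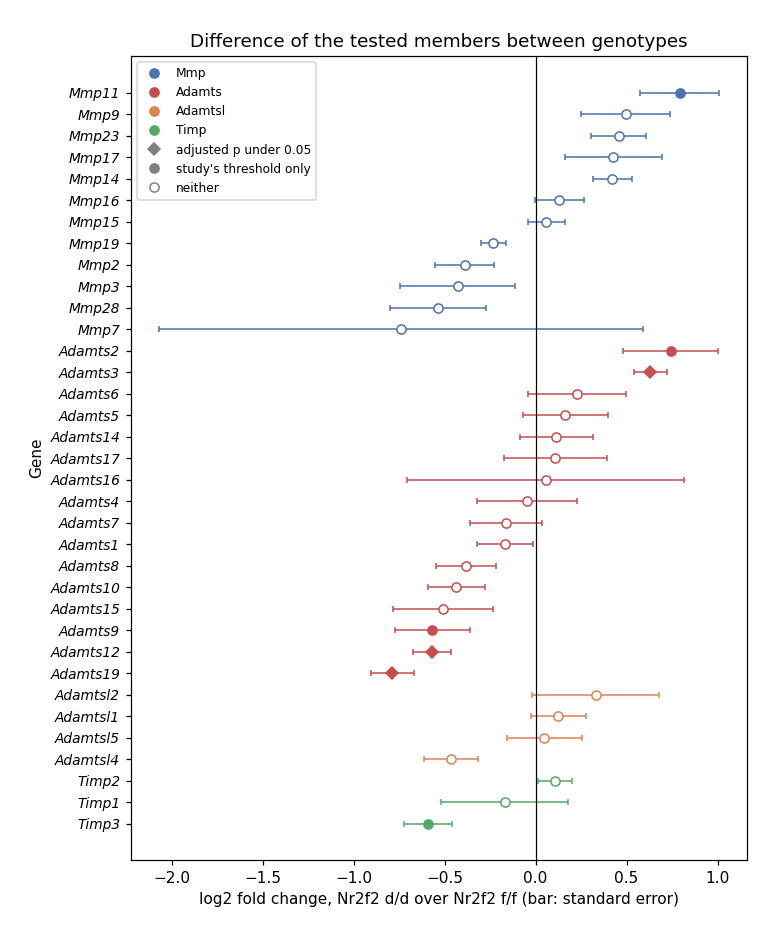
log2 fold change of the 35 tested members, Nr2f2 d/d over Nr2f2 f/f on log2(FPKM + 0.5), with bars for the standard error and colours for the families. Diamonds mark Adamts3, Adamts12 and Adamts19 (adjusted p under 0.05), other filled points mark Mmp11, Adamts2, Adamts9 and Timp3 (study's threshold only), and open points the 28 others.

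Adamts3, Adamts2 and Adamts14 encode the procollagen N-propeptidases, which trim the amino-terminal propeptide from fibrillar procollagens, and ADAMTS3 also takes part in the activation of VEGF-C. Adamts3 was at 0.97, 0.85, 0.834 and 0.953 FPKM in the 4 controls and 1.5, 1.71, 1.77 and 1.70 FPKM in the 4 Nr2f2 d/d libraries. Every Nr2f2 d/d library lay above every control. Its mean rose from 0.902 ± 0.0696 to 1.67 ± 0.117 FPKM (n = 4 each, SD), a change of 0.63 ± 0.0905 on the log2 scale (SE, limma, adjusted p = 0.0189), and the exact two-sided permutation test gave p = 0.0286, the smallest that 4 against 4 libraries allow. With each library left out in turn, Adamts3 kept an adjusted p under 0.05 in 4 of 8 fits and lost it when control replicate 1 (0.0552) or 4 (0.0523) or mutant replicate 1 (0.0513) or 2 (0.0724) was left out. Its log2 fold change stayed between 0.61 and 0.67, and its call at the study's threshold held in all 8 fits. Adamts2 was at 7.58, 5.95, 8.65 and 9.74 FPKM in the 4 controls and 13.7, 10.8, 22.7 and 9.72 FPKM in the 4 Nr2f2 d/d libraries. Nr2f2 d/d replicate 3 was the highest library and replicate 4 lay just under the highest control, so the groups overlapped. The means were 7.98 ± 1.62 and 14.2 ± 5.89 FPKM (SD, n = 4 each), a change of 0.74 ± 0.262 on the log2 scale (SE, limma, adjusted p = 0.165), and its call at the study's threshold was lost without Nr2f2 f/f replicate 2. For Adamts2 the exact two-sided permutation p was 0.0571. Adamts14 was at 3.81 ± 0.768 and 4.21 ± 1.21 FPKM (SD, n = 4 each), a difference within the spread of the libraries.

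Adamts12 and Adamts7 encode proteases that cleave cartilage oligomeric matrix protein. Adamts12 was at 3.19, 3.44, 3.22 and 3.79 FPKM in the 4 controls and 2.33, 1.75, 2.26 and 2.21 FPKM in the 4 Nr2f2 d/d libraries. All Nr2f2 d/d libraries were below all controls. Adamts12 fell from 3.41 ± 0.275 to 2.14 ± 0.264 FPKM (n = 4 each, SD), a change of -0.57 ± 0.102 on the log2 scale (SE, limma, adjusted p = 0.0327), with an exact two-sided permutation p of 0.0286. Its adjusted p was above 0.05 in each of the 8 fits that left out 1 library, from 0.0521 to 0.0930, while its unadjusted call at the study's threshold held in all 8. Adamts7 was at 11.5 ± 2.10 and 10.3 ± 2.51 FPKM (SD, n = 4 each), with overlapping groups.

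The promoters of Adamts3 and Adamts12 are shown because these members passed the adjusted threshold in opposite directions. The promoter of Adamts19 was not analysed here. Each run is the 250 bases before the transcription start on the gene's own strand, from RefSeq (GRCm38.p6), in lower case with matches to the nuclear receptor half-sites AGGTCA and GGGTCA, on either strand, in capitals. The Adamts3 window (chr5:89883335-89883584, minus strand) held 0 matches, and the Adamts12 window (chr15:11064523-11064772, plus strand) held 1, whose first base is 6 bases before the start.
Adamts3: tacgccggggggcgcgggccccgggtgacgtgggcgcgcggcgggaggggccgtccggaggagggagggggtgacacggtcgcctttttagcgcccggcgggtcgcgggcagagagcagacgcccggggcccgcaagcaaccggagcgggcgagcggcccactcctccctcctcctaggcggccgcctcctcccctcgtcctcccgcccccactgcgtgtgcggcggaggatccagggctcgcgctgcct
Adamts12: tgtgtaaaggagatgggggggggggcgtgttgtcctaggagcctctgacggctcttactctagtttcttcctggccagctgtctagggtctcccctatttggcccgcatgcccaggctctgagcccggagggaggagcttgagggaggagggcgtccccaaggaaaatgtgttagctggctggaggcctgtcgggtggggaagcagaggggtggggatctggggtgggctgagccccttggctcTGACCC
Of 32536 windows of this length in RefSeq, 23.9% held at least 1 match, and 9 of the 36 members with a window did. The windows of Mmp14, Mmp11, Timp3 and Adamts9 held 0 matches and that of Adamts2 held 1. These are matches of letters, and binding of NR2F2 was not measured in these libraries. The study mapped it by ChIP-seq in wild type uteri at GD3.5, and that map was not used here.

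Among the remaining Adamts genes, Adamts19 encodes a protease with few known substrates that takes part in heart valve formation. It was at 3.04, 3.67, 4.34 and 3.57 FPKM in the 4 controls and 1.69, 1.86, 1.84 and 2.23 FPKM in the 4 Nr2f2 d/d libraries. The highest Nr2f2 d/d library was below the lowest control. Adamts19 fell from 3.66 ± 0.535 to 1.90 ± 0.232 FPKM (n = 4 each, SD), a change of -0.79 ± 0.119 on the log2 scale (SE, limma, adjusted p = 0.0203), with an exact two-sided permutation p of 0.0286. It passed the adjusted threshold in 5 of the 8 fits that left out 1 library and missed it without control replicate 4 (0.0621) or mutant replicate 1 (0.0672) or 2 (0.0740). Its log2 fold change stayed between -0.86 and -0.71 there, and its call at the study's threshold held in all 8 fits. Adamts10, whose product acts on fibrillin microfibrils, was at 19.0, 26.5, 17.1 and 15.1 FPKM in the 4 controls and 14.0, 13.5, 13.3 and 15.01 FPKM in the 4 Nr2f2 d/d libraries. Its groups did not overlap, but the lowest control and the highest Nr2f2 d/d library were nearly equal. The means were 19.4 ± 4.98 and 13.9 ± 0.763 FPKM (SD, n = 4 each), a change of -0.44 ± 0.157 on the log2 scale (SE, limma, adjusted p = 0.172), and without Nr2f2 f/f replicate 2, the highest library, the log2 fold change was -0.28. Adamts6 and Adamts17, also linked to microfibrils, had overlapping groups with means of 2.24 and 2.60 FPKM and of 1.20 and 1.35 FPKM. Adamts16 ranged from 0.315 to 7.37 FPKM in Nr2f2 f/f and from 0.802 to 4.97 FPKM in Nr2f2 d/d, and the sign of its difference changed with the library left out. Adamts18 was not tested and ranged from 0.105 to 0.391 FPKM in Nr2f2 f/f and from 0.029 to 0.118 FPKM in Nr2f2 d/d.

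Adamts1, Adamts4, Adamts5, Adamts8, Adamts9, Adamts15 and Adamts20 encode the proteoglycan-cleaving branch, which cuts versican and aggrecan. Of its 6 tested members, Adamts9 was the 1 past the study's threshold and 0 passed the adjusted one in limma's test, while 2 had an unadjusted p under 0.05 (21.2% of all genes). Adamts9 was at 22.4, 22.8, 14.0 and 12.8 FPKM in the 4 controls and 12.1, 9.95, 11.1 and 13.4 FPKM in the 4 Nr2f2 d/d libraries. Controls fell into a higher and a lower pair, and the lower pair lay around the highest Nr2f2 d/d library. The means were 18.0 ± 5.36 and 11.6 ± 1.48 FPKM (SD, n = 4 each), a change of -0.57 ± 0.205 on the log2 scale (SE, limma, adjusted p = 0.174), and its call at the study's threshold held in 4 of the 8 fits that left out 1 library and was lost without Nr2f2 f/f replicate 1 or 2 or Nr2f2 d/d replicate 2 or 3. For Adamts9 the exact two-sided permutation p was 0.0571. Adamts1, which is induced by progesterone around ovulation, was at 16.98, 14.3, 23.0 and 23.5 FPKM in the 4 controls and 16.96, 16.8, 17.1 and 16.7 FPKM in the 4 Nr2f2 d/d libraries. The Nr2f2 d/d libraries were nearly equal and lay inside the range of the controls, with means of 19.4 ± 4.53 and 16.9 ± 0.160 FPKM (SD, n = 4 each) and a change of -0.17 ± 0.153 on the log2 scale (SE, limma, adjusted p = 0.564). With 1 library left out it lay between -0.30 (control replicate 2 out) and -0.069 (control replicate 4 out). Adamts15 was at means of 6.17 and 3.92 FPKM (adjusted p = 0.325) and Adamts8 at 0.945 and 0.596 FPKM (adjusted p = 0.230). Adamts4 and Adamts5 differed less, with log2 fold changes of -0.049 and 0.16. Adamts20 (0.046 to 0.131 FPKM) and Adamts13, the von Willebrand factor protease (0.006 to 0.023 FPKM), were below the level tested.

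**Figure D3:**
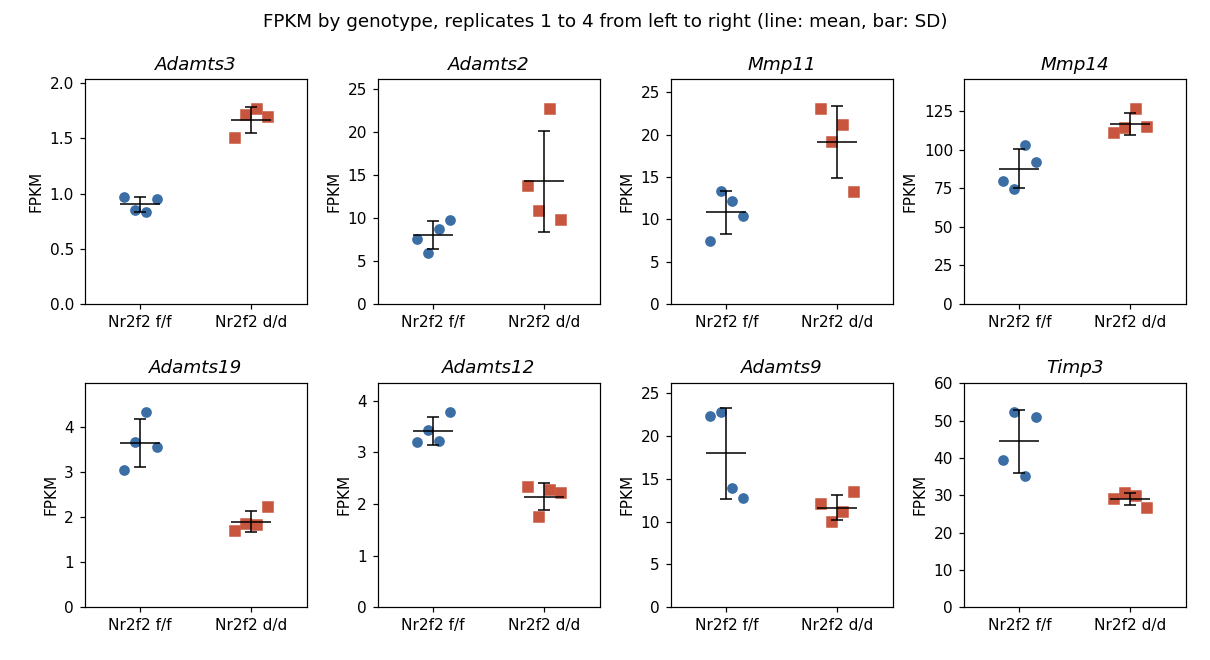
FPKM of the 7 members at the study's threshold and of Mmp14, in the 4 Nr2f2 f/f (circles) and 4 Nr2f2 d/d libraries (squares), with lines for the mean and bars for the SD (n = 4 each). Adamts3, Mmp14, Adamts19, Adamts12 and Timp3 show no overlap between genotypes, while Adamts2, Mmp11 and Adamts9 do.

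The membrane-type metalloproteases and the gelatinases are linked, since MMP14 at the cell surface activates the precursor of MMP2. Mmp14 was at 80.0, 74.9, 103 and 92.4 FPKM in the 4 controls and 111, 114, 127 and 115 FPKM in the 4 Nr2f2 d/d libraries. Each Nr2f2 d/d library was above each control. Its mean was 87.6 ± 12.7 FPKM in Nr2f2 f/f and 117 ± 6.89 FPKM in Nr2f2 d/d (SD, n = 4 each), a change of 0.42 ± 0.109 on the log2 scale (SE, limma, adjusted p = 0.0800), so that Mmp14 missed both thresholds, with an exact two-sided permutation p of 0.0286. Mmp2, which encodes gelatinase A, was at 111, 148, 106 and 86.1 FPKM in the 4 controls and 91.3, 81.5, 92.6 and 73.5 FPKM in the 4 Nr2f2 d/d libraries. Most Nr2f2 d/d libraries were below most controls, but Nr2f2 f/f replicate 4 lay among the Nr2f2 d/d libraries. The means were 113 ± 25.8 and 84.7 ± 8.97 FPKM (SD, n = 4 each), a change of -0.39 ± 0.161 on the log2 scale (SE, limma, adjusted p = 0.218), and without Nr2f2 f/f replicate 2, the highest library, the log2 fold change was -0.25. Mmp9, which encodes gelatinase B and is abundant in neutrophils, was at 1.16 ± 0.513 and 1.81 ± 0.558 FPKM (SD, n = 4 each, adjusted p = 0.286 from limma). The sum of 10 neutrophil markers, 6 of them below the level tested, was 3.81 to 21.6 FPKM in Nr2f2 f/f and 18.9 to 42.4 FPKM in Nr2f2 d/d, with S100a8 and S100a9 higher and Retnlg lower at the study's threshold (means of 2.79 and 12.3, 3.28 and 14.0, and 2.38 and 0.536 FPKM), and its part in the level of Mmp9 was not tested. Of the other membrane-type genes, Mmp15 and Mmp16 had log2 fold changes of 0.06 and 0.13, and Mmp17 had means of 4.08 and 5.88 FPKM with overlapping groups. Mmp24 (0.003 to 0.015 FPKM) and Mmp25 (0.099 to 0.39 FPKM) were not tested.

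Mmp11 encodes stromelysin-3, which is typically made by stromal cells during tissue remodelling. It was at 7.48, 13.3, 12.2 and 10.4 FPKM in the 4 controls and 23.1, 19.2, 21.1 and 13.2 FPKM in the 4 Nr2f2 d/d libraries. Nr2f2 d/d replicate 4 lay just below Nr2f2 f/f replicate 2, and the other Nr2f2 d/d libraries were above all controls. The means were 10.9 ± 2.54 and 19.1 ± 4.28 FPKM (SD, n = 4 each), a change of 0.79 ± 0.216 on the log2 scale (SE, limma, adjusted p = 0.0926). This was the highest log2 fold change among the tested members, and it held at the study's threshold in all 8 fits that left out 1 library. For Mmp11 the exact two-sided permutation p was 0.0571. Mmp23 was at means of 38.0 and 52.6 FPKM (adjusted p = 0.141 from limma) and Mmp28, the gene of epilysin, at 1.31 and 0.692 FPKM (adjusted p = 0.287). Mmp19 was at 10.04, 10.6, 10.95 and 10.98 FPKM in the 4 controls and 9.21, 8.21, 9.48 and 9.05 FPKM in the 4 Nr2f2 d/d libraries. Its groups did not overlap, with a change of -0.23 ± 0.0690 on the log2 scale (SE, limma, adjusted p = 0.113), but 28.3% of its exon bases are shared with genes on the opposite strand, among them Tmem198b at 10.3 and 9.02 FPKM. The library kit does not keep the strand, so reads of these genes cannot be told apart there. Mmp21 was not tested and ranged from 0 to 0.035 FPKM.

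The 10 genes Mmp13, Mmp12, Mmp1b, Mmp3, Mmp1a, Mmp10, Mmp8, Mmp27, Mmp20 and Mmp7 lie in 1 run on chromosome 9, from 7272514 to 7699585 of mm10 (GENCODE vM21). Of these, Mmp3 and Mmp7 were tested. Mmp3, which encodes stromelysin-1, was at 7.16, 4.78, 6.26 and 7.22 FPKM in the 4 controls and 2.85, 5.22, 3.12 and 8.81 FPKM in the 4 Nr2f2 d/d libraries, with overlapping groups and an adjusted p of 0.468 from limma. Mmp7, the gene of the epithelial protease matrilysin, ranged from 0.394 to 58.6 FPKM in Nr2f2 f/f and from 0.484 to 12.5 FPKM in Nr2f2 d/d. Nr2f2 f/f replicate 2, the library with the high Spink1, Prss28 and Prss29, was the highest, and without it the log2 fold change of Mmp7 was 0.40 in place of -0.74. Mmp13, a collagenase, was at 0.041, 0.036, 0.034 and 0.055 FPKM in the 4 controls and 0.242, 0.105, 0.298 and 0.095 FPKM in the 4 Nr2f2 d/d libraries. Although every Nr2f2 d/d library was above every control, these values rest on about 6 to 9 fragments in each control library and 20 to 74 in each Nr2f2 d/d library. Mmp12, the gene of macrophage elastase, was at 0.017, 0.013, 0.204 and 0.018 FPKM in the 4 controls and 0.891, 0.923, 0.148 and 0.303 FPKM in the 4 Nr2f2 d/d libraries. Nr2f2 f/f replicate 3 lay above Nr2f2 d/d replicate 3, so the groups overlapped. The sum of 9 macrophage markers was 264 to 516 FPKM in Nr2f2 f/f, highest in replicate 3, and 408 to 702 FPKM in Nr2f2 d/d, lowest in replicate 3. Of the 9 markers 1 (Lyz2) was higher at the study's threshold, and the part of these cells in the level of Mmp12 was not tested. Mmp10 (0.152 to 0.506 FPKM), Mmp27 (0.03 to 0.139 FPKM) and Mmp8, the neutrophil collagenase (0.006 to 0.073 FPKM), overlapped between the groups. Mmp20, the enamel protease, was above 0 in 1 library. Mmp1a and Mmp1b are close copies of each other, and a listed value of 0 may also depend on how shared fragments were counted.

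**Figure D4:**
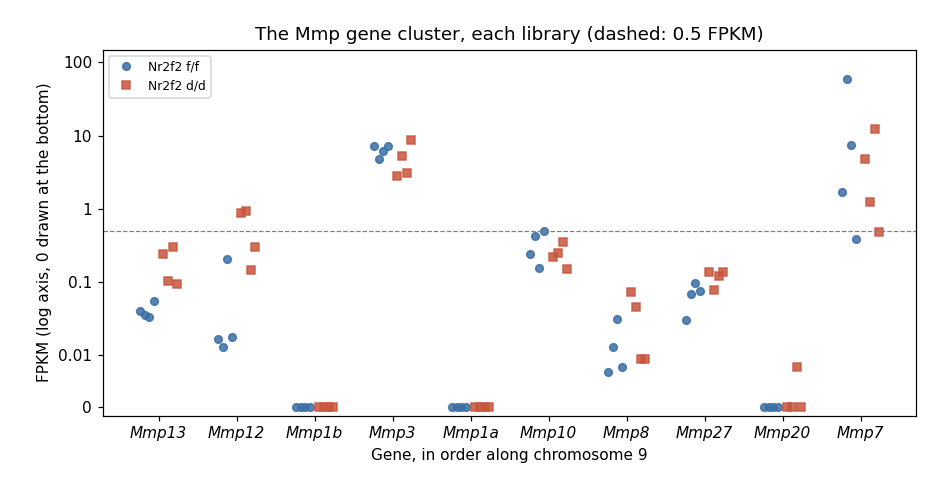
FPKM (log axis, with 0 drawn at the bottom) of the 10 Mmp genes of the chromosome 9 run in each library, in their order along the chromosome, with circles for Nr2f2 f/f, squares for Nr2f2 d/d and a dashed line at 0.5 FPKM. Mmp3 and Mmp7 reach above 1 FPKM, Mmp13 is separated between genotypes at 0.034 to 0.298 FPKM, and Mmp1a and Mmp1b are at 0 throughout.

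The TIMPs differ in their targets, and TIMP3 is bound to the matrix and inhibits ADAM and ADAMTS proteases as well as metalloproteases. Timp3 was at 39.5, 52.4, 35.3 and 51.0 FPKM in the 4 controls and 29.0, 30.7, 29.7 and 26.6 FPKM in the 4 Nr2f2 d/d libraries. All Nr2f2 d/d libraries were below all controls, and the controls spread more widely. The mean was 44.5 ± 8.45 FPKM in Nr2f2 f/f and 29.0 ± 1.71 FPKM in Nr2f2 d/d (SD, n = 4 each), a change of -0.59 ± 0.133 on the log2 scale (SE, limma, adjusted p = 0.0571), with an exact two-sided permutation p of 0.0286. Timp3 missed the adjusted threshold in the fit over all libraries and passed it in 1 of the 8 fits that left out 1 library, without Nr2f2 f/f replicate 3 (0.0443). Its exons share 21.3% of their bases with Syn3 on the opposite strand, which was at 0.13 to 0.239 FPKM. Timp2, whose product takes part in the activation of MMP2 by MMP14, was at 65.3, 78.9, 73.5 and 74.2 FPKM in the 4 controls and 70.5, 85.9, 73.5 and 85.3 FPKM in the 4 Nr2f2 d/d libraries. The groups overlapped, with means of 73.0 ± 5.66 and 78.8 ± 7.95 FPKM (SD, n = 4 each) and a change of 0.11 ± 0.0942 on the log2 scale (SE, limma, adjusted p = 0.544). The change lay between 0.056 (control replicate 1 out) and 0.16 (mutant replicate 1 out) with 1 library left out. Timp1, an inhibitor with little action on membrane-type proteases, was at 26.3, 8.14, 17.8 and 20.5 FPKM in the 4 controls and 10.97, 13.4, 21.2 and 15.6 FPKM in the 4 Nr2f2 d/d libraries. Nr2f2 f/f replicates 1 and 2 were the highest and the lowest library, with means of 18.2 ± 7.60 and 15.3 ± 4.39 FPKM (SD, n = 4 each) and a change of -0.17 ± 0.348 on the log2 scale (SE, limma, adjusted p = 0.815). The change lay between -0.50 (control replicate 2 out) and 0.041 (control replicate 1 out) with 1 library left out. Timp4 was at 0.151, 0.105, 0.122 and 0.094 FPKM in the 4 controls and 0.055, 0.052, 0.073 and 0.094 FPKM in the 4 Nr2f2 d/d libraries, below the level tested.

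Ratios of proteases to inhibitors within a library were computed after the values were seen and are given as a description. The ratio of Mmp14 to Timp3 was 1.43 to 2.92 in Nr2f2 f/f and 3.73 to 4.32 in Nr2f2 d/d. The ratio of Mmp14 to Mmp2 was 0.506 to 1.07 and 1.22 to 1.57, and neither of these ratios overlapped between the groups. For Mmp14 to Timp3 this had to follow, since each gene was already apart between the groups, in opposite directions. The ratio of Mmp14 to Timp2 was 0.948 to 1.403 in Nr2f2 f/f and 1.33 to 1.72 in Nr2f2 d/d, and that of Mmp2 to Timp2 was 1.16 to 1.87 and 0.861 to 1.29, with overlap in both.

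The Adamtsl genes encode proteins without protease activity, several of which bind fibrillin microfibrils, and 0 of the 4 tested members passed either threshold in limma's test, while 1 had an unadjusted p under 0.05 (21.2% of all genes). Adamtsl4, which is known for its role in the anchoring of the lens, was at 3.87, 4.34, 5.22 and 5.24 FPKM in the 4 controls and 2.62, 2.78, 3.87 and 3.75 FPKM in the 4 Nr2f2 d/d libraries. The highest Nr2f2 d/d library was level with the lowest control. The means were 4.67 ± 0.679 and 3.26 ± 0.647 FPKM (SD, n = 4 each), a change of -0.47 ± 0.149 on the log2 scale (SE, limma, adjusted p = 0.133). Adamtsl4 missed the study's threshold with all libraries and passed it in 4 of the 8 fits that left out 1 library. Adamtsl1 was at 1.96, 3.43, 2.26 and 2.54 FPKM in the 4 controls and 2.46, 2.83, 2.67 and 3.19 FPKM in the 4 Nr2f2 d/d libraries. Its groups overlapped, with means of 2.55 ± 0.634 and 2.79 ± 0.309 FPKM (SD, n = 4 each) and a change of 0.13 ± 0.151 on the log2 scale (SE, limma, adjusted p = 0.671). With 1 library left out it lay between 0.03 (control replicate 1 out) and 0.25 (control replicate 2 out). Adamtsl5 had a log2 fold change of 0.048 and Adamtsl2, which ranged from 0.148 to 1.59 FPKM, of 0.33, both with overlapping groups. Adamtsl3 ranged from 0.083 to 0.328 FPKM and was not tested.

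In mm10 (GENCODE vM21), Adamts3 lies on chromosome 5 from 89677087 to 89883334 and Adamts12 on chromosome 15 from 11064790 to 11349231. Mmp14 lies on chromosome 14 from 54431612 to 54445364 and Mmp11 on chromosome 10 from 75923222 to 75936496. Timp3 lies on chromosome 10 from 86300372 to 86349506, within Syn3, and Timp1 and Timp4 lie within Syn1 and Syn2 in the same way. Adamts2 lies on chromosome 11 from 50602084 to 50807573 and Adamts9 on chromosome 6 from 92772699 to 92943492, and genes on the opposite strand cover 12.0% of its exon bases. Adamts3 values rest on about 284 to 353 fragments in each control library and 503 to 891 in each Nr2f2 d/d library, and Adamts12 values on about 2205 to 2739 and 1364 to 2292.

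Other genes of the same pathways were taken from 4 lists. Of 25 activators and other regulators of metalloproteases, 21 were tested, 1 passed the adjusted threshold as higher (A2m, which encodes a broad protease inhibitor, adjusted p = 0.0356 from limma, log2 fold change 3.86) and 0 as lower. Of 13 ADAM proteases, 12 were tested, 0 were higher and 2 were lower. Adam11 fell from 3.07 ± 0.548 to 1.11 ± 0.278 FPKM and Adam15 from 41.0 ± 2.42 to 28.9 ± 2.11 FPKM (SD, n = 4 each), with adjusted p-values of 0.0151 and 0.0201 from limma. Of 25 substrates and binding partners, 21 were tested, 4 were higher and 1 was lower. Over all genes 1.09% were higher and 1.53% lower at this threshold. Dcn (decorin), Ltbp1 (a binding protein of latent TGF-beta), Spp1 (osteopontin) and Col1a2 (a chain of type I collagen) rose, with log2 fold changes of 0.79, 0.93, 2.21 and 1.46 and adjusted p-values of 0.0192, 0.0237, 0.0371 and 0.0484 from limma. Fn1 (fibronectin) fell, with -1.52 on the log2 scale (limma, adjusted p = 0.00703). Of 6 relatives outside the name rule, 4 were tested and 0 passed the adjusted threshold in limma's test, while 1 had an unadjusted p under 0.05. This was Thsd4, also called Adamtsl6, at 1.22 and 2.28 FPKM (adjusted p = 0.111). Before adjustment, 7 of 21, 3 of 12, 12 of 21 and 1 of 4 tested genes of the lists had p under 0.05, against 21.2% of all genes. Over the 4 lists, median log2 fold changes were 0.014, 0.030, 0.027 and 0.15, beside -0.019 over all genes tested.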

How the data were processed

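The authors prepared libraries from whole uterine RNA with a kit that does not keep strand, trimmed 76-bp paired-end reads with cutadapt 1.12, aligned them to mm10 with STAR 2.5.2b and counted fragments with featureCounts 1.5.0-p1. The processing notes also name Cufflinks 2.0.2, and the gene annotation is not given in the sources used here. The deposited values are FPKM, which are relative to each library's total. The study ran DESeq2 on counts, which were not analysed here. FPKM are no counts, so log2(FPKM + 0.5) was compared, for the 14323 genes averaging 0.5 FPKM or more, with limma 3.58.1 in R 4.3.3 (eBayes with trend, two-sided, genotype only), with Benjamini-Hochberg adjustment over all of them. The added 0.5 understates the change of low genes. Single members were compared with the exact permutation test over the 70 arrangements of libraries. Library totals were recovered from single-exon genes, and 90.0% to 97.6% of their values then came out within 0.1 of a whole fragment. Coordinates are from GENCODE vM21, to which all 51 symbols matched. Figures were drawn with Python 3.11.15 and matplotlib 3.10.9.

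Named with full statistics were members past either threshold, all tested Timp genes and the 2 highest genes of each other family. In each other list the genes past the adjusted threshold were named. Mmp3, Mmp12, Mmp13, Mmp19, Syn3, Thsd4, Tmem198b, S100a8, S100a9, Retnlg, Spink1, Prss28, Prss29, Foxa2, Lif and Cxcl15 were given library values or means after their values were seen. The genes left out of marker sums were chosen in the same way. The members and lists were chosen with earlier results of these data known. Alternatives were other offsets, filters, scalings and variance models, replicate blocks and each library left out.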

Additional observations from a re-analysis of the deposited data

Results flagged for a closer look

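A single library far from the other 3 of its group was found in 2 of 70 groups of 4 libraries looked at, and chance marks about 1 in 20. Both were in Nr2f2 f/f replicate 2, the library with the high Spink1, Prss28 and Prss29. Mmp7 was at 58.6 FPKM there and at 0.394 to 7.44 FPKM in the other controls. Adamtsl5 was at 3.45 FPKM there and at 1.66 to 1.89 FPKM in the other controls.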

How the results depend on the processing

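The 3 members at an adjusted p under 0.05 stayed 3 with other offsets, a higher filter, median-ratio scaling, quantile normalization and other variance models, and were 2 without a filter on low values, where Adamts12 was lost. With each library left out the count was 0 to 3, with 0 without Nr2f2 f/f replicate 4, Nr2f2 d/d replicate 1 or replicate 2, and 1 without Nr2f2 f/f replicate 1. Calls over all genes fell in the same fits. They were 375 with all libraries, 62 and 95 without Nr2f2 f/f replicate 1 or 4, and 57 and 42 without Nr2f2 d/d replicate 1 or 2. Members at the study's threshold numbered 6 to 11 with a library left out, 11 without Nr2f2 f/f replicate 3 or Nr2f2 d/d replicate 4. The 8 pathway genes past the adjusted threshold were 5 without a filter and 1 to 8 with a library left out, with 2 without Nr2f2 f/f replicate 1 or 4 and 1 without Nr2f2 d/d replicate 1 or 2. The replicate numbers are not said to pair the mice. Deviations of libraries with the same title number correlated at -0.204, -0.172, 0.0452 and -0.040, and by the numbers inside the labels (1, 3 and 5) at -0.204, 0.149 and -0.040. So few correlations cannot settle whether mice were paired. With the replicate block by either numbering, 0 members and 0 pathway genes passed, where 1 and 0 of all genes did, and Nr2f2 had log2 fold changes of -1.39 and -1.32 (adjusted p = 0.0714 and 0.0609). With the label numbers as a block, which uses 6 libraries, the family medians were -0.28 (Adamts), 0.27 (Adamtsl) and -0.52 (Timp), Adamts14 was at -0.16 and Adamts16 at -0.40. With 1 FPKM added, Adamts16 was at -0.0025. With a library left out, the medians ranged from 0.066 to 0.21 (Mmp), -0.28 to -0.033 (Adamts), -0.037 to 0.23 (Adamtsl) and -0.50 to 0.041 (Timp), with the values farthest from 0 in each family reached without Nr2f2 f/f replicate 2. The low end for Adamtsl came without Nr2f2 f/f replicate 3, where Adamtsl2 fell below the filter. Log2 fold changes that changed sign ranged from -0.047 to 0.23 (Adamts14), -0.53 to 0.56 (Adamts16), -0.094 to 0.26 (Adamts17), -0.26 to 0.14 (Adamts4), -0.041 to 0.27 (Adamts5), -0.0046 to 0.39 (Adamts6), -0.28 to 0.0021 (Adamts7), -0.037 to 0.25 (Adamtsl5), -1.62 to 0.40 (Mmp7) and -0.50 to 0.041 (Timp1), and the cause was not tested.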
